A study of Mus musculus with 4 samples.

Results

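The accessibility of chromatin at 39 imprinted genes other than Plagl1 was examined in cultured periosteal stem/progenitor cells of the mouse. The genes were taken by name and fall into 15 imprinted clusters. The knockout cells were Ctsk-iCre;Plagl1fl/fl, in which the Ctsk gene drives the Cre that deletes floxed Plagl1 (2 libraries), and the control cells were Plagl1fl/fl without Cre (2 libraries), so that floxed alleles were shared by all libraries. Cells were digested from the mandibular angle at 8 weeks of age. All were induced to form bone for 3 days, with ascorbic acid (50 μg/ml), β-glycerophosphate (5 mM) and dexamethasone. They were then read by ATAC-seq, an assay in which a transposase cuts and tags open DNA. Cre was carried by the knockout alone, so effects of Cre and of the deletion cannot be told apart, and accessibility does not measure Plagl1 RNA, so the loss of Plagl1 was not checked here.

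Of the 39 genes, 13 had at least 1 annotated peak, 25 peaks in all, among 15221 annotated peaks of 8173 genes in the authors' deposited table. Each consensus peak carries only a fold between the genotypes, a mean level in CPM (counts scaled to library size), an F statistic, a p-value and a false discovery rate (FDR) by edgeR. Values for each library, and so the depth of each and the spread between those of a genotype, are not analysed here. All peaks that carry a gene name had p under 0.05 and a log2 fold beyond 0.2 in either direction, so every annotated peak was chosen on the contrast described below. A second set was bounded by position. It held the 79 consensus peaks, of 85925, with a centre within 50 kb of a start site of these 13 genes. Starts could be solved only for genes with an annotated peak. This set, its other windows and the peaks at start sites therefore still depend in part on the contrast. Positive folds are read as more open in the knockout, a direction the tables do not state, and turning the ratio would swap gained and lost throughout.

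Imprinted genes are expressed mainly from the copy inherited from 1 parent. Most lie in clusters, in which a control region methylated on 1 parental copy governs several neighbours, often through a long non-coding RNA. Many act on fetal growth, with paternally expressed genes such as Igf2 and Dlk1 tending to promote it and maternally expressed genes such as Igf2r, Cdkn1c and Grb10 tending to restrain it. Plagl1 encodes a zinc finger factor, is itself paternally expressed, and has been described in mouse tissues as part of a network of imprinted genes expressed together. ATAC-seq as read here sums both parental copies.

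RefSeq promoters (250 bases before to 50 after a start, build GRCm38.p6) were found for 32 of the 39 genes, 50 promoters in all. Shown are the promoters of the genes with a called peak within 50 kb or a start peak with an unadjusted p under 0.05: Igf2r (chr17:12769657-12769956, minus strand), Airn (chr17:12741061-12741360, plus strand), Dlk1 (chr12:109452573-109452872, plus strand) and the outer promoter of Grb10 (chr11:12037371-12037670, minus strand). These positions are of GRCm38.p6 and cannot be set beside the mm39 positions of the peaks. Capitals mark, on either strand, matches to CCNCNCCC, a site of KLF factors, and to TGCCGC, a site of the imprint-maintaining factor ZFP57; overlapping matches run together.
Igf2r: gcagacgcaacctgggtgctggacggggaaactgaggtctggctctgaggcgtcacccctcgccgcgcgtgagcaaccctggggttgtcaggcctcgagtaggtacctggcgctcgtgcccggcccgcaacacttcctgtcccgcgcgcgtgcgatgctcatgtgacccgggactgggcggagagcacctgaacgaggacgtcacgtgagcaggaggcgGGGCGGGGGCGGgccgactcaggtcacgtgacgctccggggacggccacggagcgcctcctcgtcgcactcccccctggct
Airn: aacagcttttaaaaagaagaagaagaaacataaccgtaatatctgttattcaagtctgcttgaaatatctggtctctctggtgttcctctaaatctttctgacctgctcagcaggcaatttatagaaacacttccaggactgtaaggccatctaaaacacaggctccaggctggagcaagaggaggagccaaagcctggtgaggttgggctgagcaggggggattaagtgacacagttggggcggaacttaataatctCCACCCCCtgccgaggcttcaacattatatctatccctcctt
Dlk1: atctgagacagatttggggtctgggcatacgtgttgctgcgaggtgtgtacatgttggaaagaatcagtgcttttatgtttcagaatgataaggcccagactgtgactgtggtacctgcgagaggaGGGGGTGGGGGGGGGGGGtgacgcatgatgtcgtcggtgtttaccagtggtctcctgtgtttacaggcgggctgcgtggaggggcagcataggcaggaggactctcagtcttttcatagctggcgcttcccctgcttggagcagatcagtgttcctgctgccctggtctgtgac
Grb10: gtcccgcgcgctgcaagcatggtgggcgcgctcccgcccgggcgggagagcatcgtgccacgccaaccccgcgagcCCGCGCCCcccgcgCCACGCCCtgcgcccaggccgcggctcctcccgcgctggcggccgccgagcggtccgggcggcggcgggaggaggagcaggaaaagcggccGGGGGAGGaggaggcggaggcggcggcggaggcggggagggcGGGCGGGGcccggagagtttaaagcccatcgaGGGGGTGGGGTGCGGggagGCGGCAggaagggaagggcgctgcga

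The Igf2r promoter held 2 KLF matches and the Airn promoter 1, while Dlk1 held 7 overlapping matches within a run of G, and the outer Grb10 promoter held 7 KLF matches and 1 ZFP57 match. Over all 50 promoters, 31 held CCNCNCCC (62%, against 49.5% of all 32851 promoters) and 11 held TGCCGC (22%, against 11.6%). The palindrome GGGGCCCC, a site of PLAGL1, was in 3 (6%, against 1.08%), those of Peg3, Usp29 and Ppp1r9a. The median GC content was 55.8% in these promoters and 52.7% in all. The CTCF site searched was in 0 of them, against 0.0365% of all promoters. Several genes had more than 1 promoter among the 50, so matches may not all be separate sites. Nor was it checked whether the promoters of Peg3 (minus strand) and Usp29 (plus strand), genes of 1 cluster, overlap and share a match. By gene, CCNCNCCC was found in 23 of 32, TGCCGC in 10 and GGGGCCCC in 3. Such matches describe letters only.

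Accessibility changed at few of the peaks around these genes, and the shares were close to those of the genome. Gains were at Igf2r, Airn and Nnat, and losses at Dlk1 and Cdkn1c. In the authors' deposited table, 7 of the 25 annotated peaks (28%) had an edgeR FDR under 0.05, 4 gained and 3 lost, against 30.6% of all annotated peaks (17.6% gained and 13.1% lost). Within 50 kb of the solved starts, 4 of 79 peaks (5.06%) passed, 3 gained and 1 lost in the authors' deposited table, against 5.62% of all consensus peaks (3.14% gained and 2.48% lost). The median log2 fold of the 79 was 0.017, and that of all consensus peaks 0.0024, in the authors' deposited table. Counted by gene, 5 of the 13 genes with an annotated peak had a called one (38.5%), against 42.1% of the 8160 other genes.

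**Figure D1:**
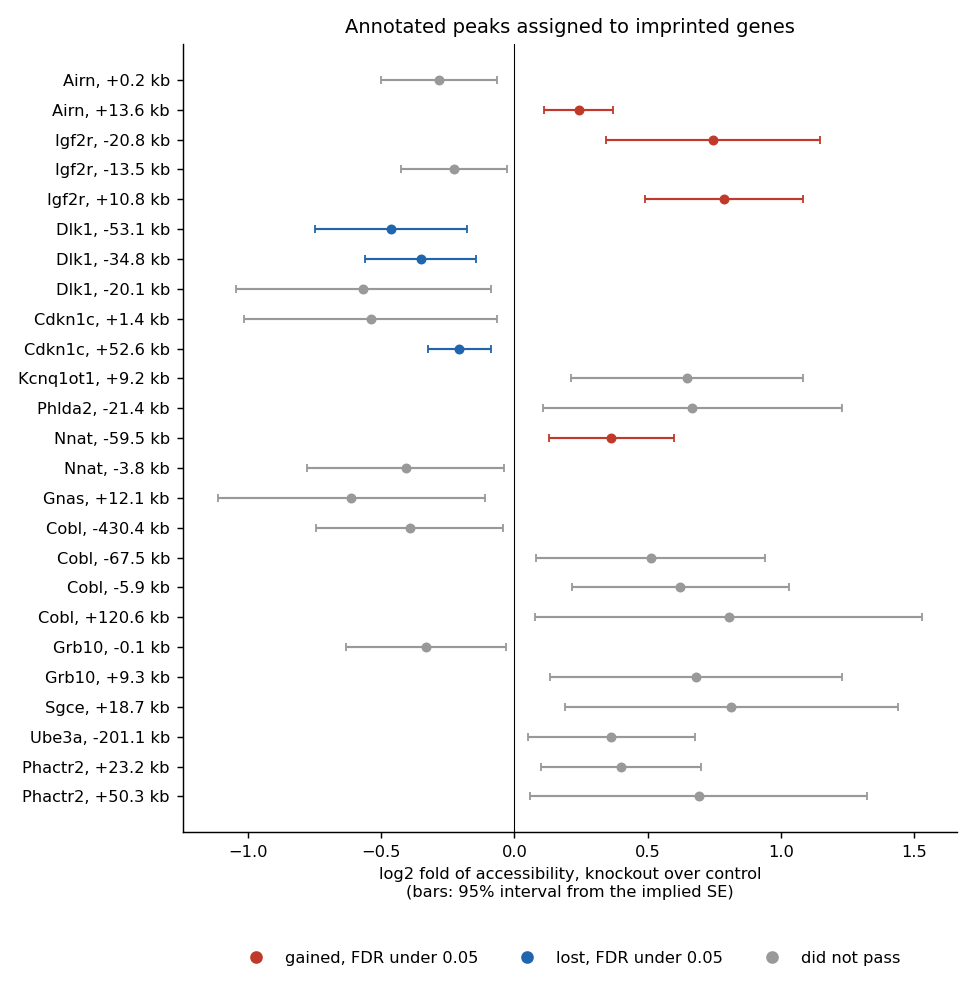
Log2 fold of knockout over control (x axis) for the 25 annotated peaks of 13 imprinted genes (rows, with the distance from the start in kb), points with 95% intervals from the standard error implied by the F statistic. The 4 gained peaks belong to Igf2r, Airn and Nnat and the 3 lost peaks to Dlk1 and Cdkn1c; no interval spans 0, as every annotated peak had p under 0.05.

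The 4 called peaks within 50 kb lay outside the 5th to 95th percentile of all consensus peaks of like signal, as the plot of fold against signal shows. Called annotated peaks lay 10772 to 59500 bp from a start, had 4.54 to 55.1 CPM and were 185 to 1343 bp wide. None of the 7 was annotated to a repeat. Of the 33 consensus peaks within 10 kb of a start, 0 had an edgeR FDR under 0.05 in the authors' deposited table. An unadjusted p under 0.05 was found at 7 of them. Of all consensus peaks, 5.62% had such an FDR and 17055 of 85925 such a p, so neither count sets these 33 apart. The standard error implied by the F statistic declined along signal with a slope of -0.52 on log2 scales, close to that of counting noise alone. Had libraries of a genotype varied by a coefficient of variation of 0.05 on top of it, 2 of the 7 peaks would pass, both at Igf2r, and with 0.1 none would (adjusted p 0.108 to 0.803).

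**Figure D2:**
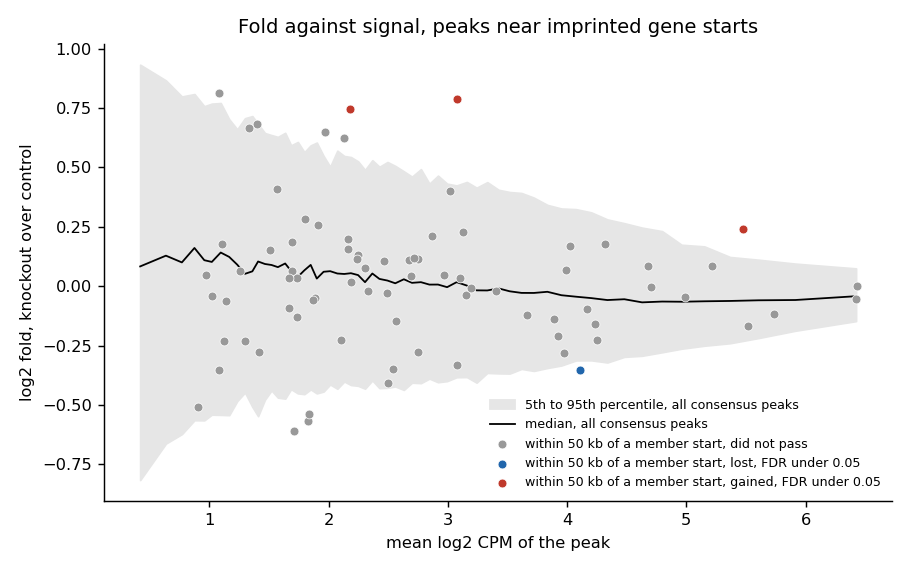
Log2 fold of knockout over control against mean log2 CPM for the 79 consensus peaks within 50 kb of a start of an imprinted gene (points), over the median (line) and 5th to 95th percentile (band) of all consensus peaks. The 3 gained peaks lie above the band and the lost peak below it, while most of the other points lie inside.

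Within 50 kb, the most called peaks of any cluster lay at Igf2r and Airn on chromosome 17, which also held the most peaks. Igf2r encodes the receptor that clears IGF2 and sorts lysosomal enzymes, and Airn is the non-coding RNA, transcribed against Igf2r from within it, that silences Igf2r on the paternal copy in mouse. Their solved starts, 12988593 for Igf2r on the minus strand and 12960198 for Airn on the plus strand (mm39), lie 28395 bp apart. Of 18 peaks within 50 kb of either start, the authors' deposited table has 3 gained and 0 lost, with 9 folds above 0 and 9 below. The called share was 16.7%, beside 14.3% (1 of 7) for the Dlk1 cluster and 5.62% of all consensus peaks.

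The smallest FDR of any annotated peak of the 39 genes was in intron 1 of 47 of Igf2r, 10772 bp into the gene (chr17:12977683-12977959, 8.45 CPM). In the authors' deposited table its log2 fold was 0.79 (SE 0.150, 95% interval 0.49 to 1.08; 1.73-fold) with an edgeR FDR of 8.74e-05. A second gained peak lay 20754 bp upstream of the Igf2r start, inside the last Airn intron (chr17:13009256-13009439, 4.54 CPM), and had a log2 fold of 0.75 (SE 0.205, edgeR FDR 0.0129) in the authors' deposited table. Both Igf2r peaks were narrow, 278 and 185 bp.

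The third gained peak was broader and stronger, 1066 bp and 44.5 CPM, and lay in intron 1 of Igf2r, 13631 bp past the Airn start (chr17:12973297-12974361). Its log2 fold was 0.24 (SE 0.0656, edgeR FDR 0.0115) in the authors' deposited table. All 3 remained gained with the trend of fold along signal subtracted (adjusted p 0.0242 or less). DNA read by ATAC-seq has no strand, so none of these peaks can be given to Igf2r or to Airn alone.

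Both start sites lay under a consensus peak, and neither peak passed. The peak over the Airn start (chr17:12960034-12960687, 15.7 CPM), on the CpG island annotated there, had a log2 fold of -0.28 (SE 0.112, unadjusted p 0.0116, edgeR FDR 0.114) in the authors' deposited table. Over the Igf2r start (chr17:12987459-12989084, 14.8 CPM) the value was -0.14 (SE 0.114, edgeR FDR 0.538) in the authors' deposited table. Between the starts lay 4 further peaks, whose log2 folds in the authors' deposited table were all above 0 (0.15 to 0.79), 2 of them gained.

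**Figure D3:**
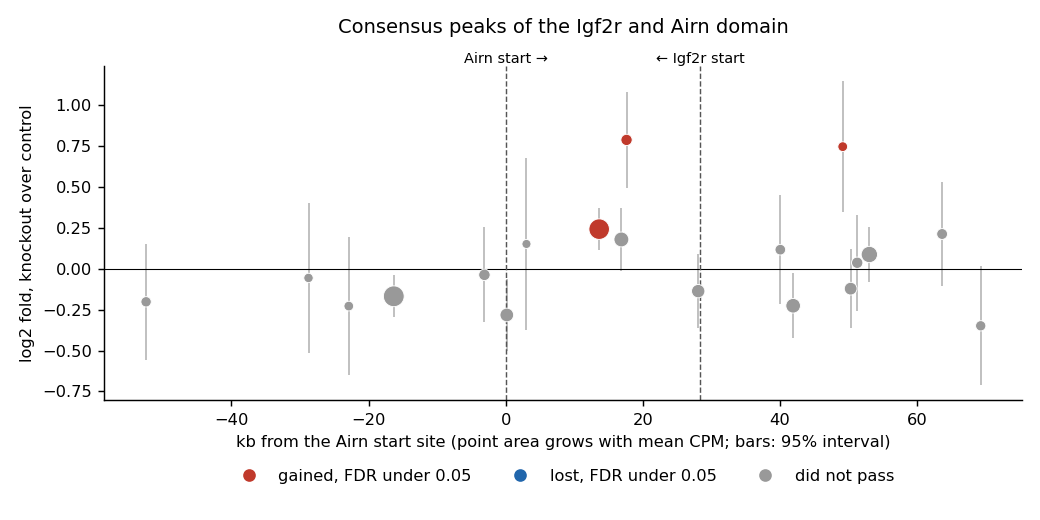
Log2 fold of knockout over control (y axis, 95% intervals) for 19 consensus peaks by distance from the Airn start in kb; point area grows with mean CPM, and dashed lines mark both start sites with the direction of transcription. The 4 peaks between the starts are above 0, though the intervals of those not gained span 0. The peaks over the Airn and Igf2r starts have values of -0.28 and -0.14.

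Genes of macrophages and osteoclasts also had gained peaks. Of 18 such genes, 15 had an annotated peak and 11 had a gained one; 18 of their 27 annotated peaks were gained and 0 lost, with log2 folds of 0.25 to 0.65 in the authors' deposited table. By peak that is 66.7% gained, beside 17.6% gained and 13.1% lost of all annotated peaks. By gene, 24.5% of the 8160 genes outside the 39 had a gained peak. The list was chosen with earlier results of these data known, so its share is a description only. Examples are promoter peaks of Spi1, the gene of the myeloid factor PU.1, at 0.61 (SE 0.132, edgeR FDR 0.000708), and of the complement gene C1qb at 0.55 (SE 0.111, edgeR FDR 0.000276), both in the authors' deposited table. Their part in the gains at Igf2r, Airn and Nnat was not tested. Of 10 periosteal and mesenchymal genes, 9 had an annotated peak, with 1 gene gained (Ctsk, also on the other list) and 1 lost (Pdgfra, log2 fold -0.55 in the authors' deposited table). By peak, 2 of their 19 were gained and 1 lost (15.8% called, beside 30.6% of all annotated peaks), and 12 of the 19 folds were below 0. A gained Ctsk peak lay 170 bp from the start of Ctsk, the gene that drives the Cre carried by the knockout alone. An effect of that driver on the Ctsk peak cannot be told apart here. Since unchanged peaks carry no gene name, openness of the markers on both lists as such was not read. A changed share of cells cannot be told apart from changed openness per cell.

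Dlk1 on chromosome 12, the gene of a transmembrane EGF-like protein that restrains adipocyte formation, had lost peaks upstream. Its start was solved at 109418749 (mm39, plus strand) and all 3 of its annotated peaks were intergenic and upstream, with folds below 0. The peak 34845 bp upstream (chr12:109383518-109384291, 17.3 CPM) had a log2 fold of -0.35 (SE 0.107, edgeR FDR 0.0276) in the authors' deposited table. The peak 53103 bp upstream (chr12:109365396-109365896, 9.50 CPM), annotated to a CpG island, had -0.46 (SE 0.145, edgeR FDR 0.0342) in the authors' deposited table. The weakest, 20057 bp upstream (3.54 CPM), had -0.57 (SE 0.244, edgeR FDR 0.154) in the authors' deposited table. Neither called peak passed once the trend of fold along signal was subtracted (adjusted p 0.0793 at 34845 bp and 0.0517 at 53103 bp).

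None of the consensus peaks that alternate with these passed, and in the authors' deposited table their log2 folds ran from -0.071 to 0.28. Just inside the gene, 602.5 bp past the start (4.56 CPM), the authors' deposited table gave 0.017 (SE 0.207). Beyond Dlk1 lie the maternally expressed non-coding RNAs Meg3, Rian and Mirg and the paternally expressed retrotransposon-derived Rtl1, none with an annotated peak. Between the Dlk1 start and the next gene with a solved start, 3110009F21Rik, there were 36 consensus peaks over 706 kb, of which the authors' deposited table has 0 gained and 1 lost. That lost peak was assigned to 3110009F21Rik, 69969 bp from its start. Of all consensus peaks, 3.14% were gained and 2.48% lost. In an exon of Rian and at the end of Mirg lay 1 annotated peak each, assigned to the microRNA genes Mir370 and Mir3072; their log2 folds were -0.45 (SE 0.166, edgeR FDR 0.0888) and -0.24 (SE 0.0987, edgeR FDR 0.124) in the authors' deposited table. Further annotated peaks inside a gene of the 39 with none of its own were 1 in Usp29, assigned to Mir3099, and 1 in Ppp1r9a, assigned to Pon1. They had log2 folds of -0.55 (SE 0.268, edgeR FDR 0.225) and 0.46 (SE 0.197, edgeR FDR 0.155) in the authors' deposited table. Dio3, which encodes a thyroid hormone deiodinase, lay in an interval of 18 peaks with 0 called (smallest edgeR FDR 0.0679; 4 with an unadjusted p under 0.05) in the authors' deposited table.

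**Figure D4:**
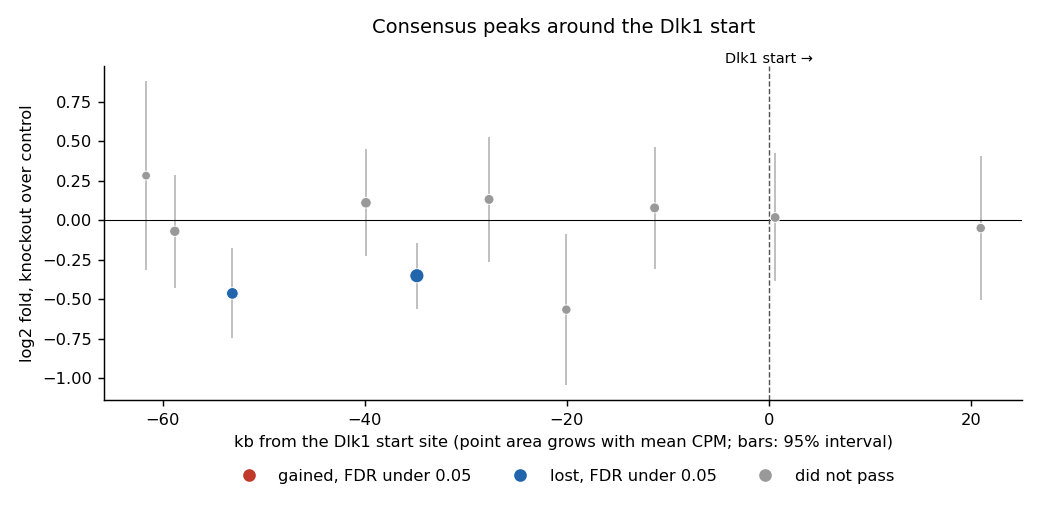
Log2 fold of knockout over control (y axis, 95% intervals) for 10 consensus peaks by distance from the Dlk1 start in kb; point area grows with mean CPM. The 2 lost peaks lie 53103 and 34845 bp upstream, each with a peak that did not pass on either side.

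In the Kcnq1ot1 cluster of chromosome 7, 1 of 4 annotated peaks was lost. Cdkn1c encodes the cyclin-dependent kinase inhibitor p57, Kcnq1ot1 is the non-coding RNA that silences its neighbours on the paternal copy, and Phlda2 restrains placental growth. The lost peak lay in the last intron of Kcnq1, 52590 bp downstream of the Cdkn1c start (chr7:142961527-142962868), and at 55.1 CPM was the strongest of the 25. In the authors' deposited table its log2 fold was -0.21 (SE 0.0601, edgeR FDR 0.0206), which with the trend subtracted became -0.15 (adjusted p 0.143). A weak peak in intron 2 of 3 of Cdkn1c, 1411 bp into the gene on a CpG island, had -0.54 (SE 0.243, edgeR FDR 0.178) in the authors' deposited table. Folds above 0 were found within Kcnq1ot1, 9173 bp from its start (0.65, SE 0.222, edgeR FDR 0.0576), and 21404 bp upstream of Phlda2, inside Nap1l4 (0.67, SE 0.287, edgeR FDR 0.153), in the authors' deposited table.

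Nnat on chromosome 2, the gene of the small membrane protein neuronatin, gained accessibility 59500 bp upstream of its start (chr2:157342238-157342759, 13.1 CPM). There the log2 fold was 0.36 (SE 0.120, edgeR FDR 0.0454) in the authors' deposited table, the closest to the threshold of the 7. A peak 3825 bp upstream, at the end of a Blcap transcript, had -0.41 (SE 0.188, edgeR FDR 0.190) in the authors' deposited table. Blcap, the gene in which Nnat is nested, had no annotated peak of its own. The interval between the Src and Nnat starts held 10 peaks, of which 2 were gained in the authors' deposited table: the Nnat peak and 1 assigned to Src. Of all consensus peaks, 3.14% were gained. Both bounding genes had an annotated peak, so this interval depends on the contrast.

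These 3 called peaks of Cdkn1c, Dlk1 and Nnat lay just beyond the 50 kb window, at 52590, 53103 and 59500 bp. Inside it, measured from the nearest solved start, the called peak closest to the edge was that of Dlk1 at 34845 bp. Windows of 100 kb held 125 peaks, 4 gained (3.2%) and 3 lost (2.4%) in the authors' deposited table. These shares were close to the 3.14% gained and 2.48% lost of all consensus peaks.

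The remaining 6 genes with an annotated peak had no call. Grb10, the gene of an adaptor that dampens insulin and IGF receptor signalling, had a promoter peak over its outer start (chr11:11987121-11987867, 8.44 CPM) with a log2 fold of -0.33 (SE 0.153, unadjusted p 0.0312, edgeR FDR 0.194), and an intron 1 peak with 0.68 (SE 0.279, edgeR FDR 0.129), in the authors' deposited table. Its neighbour Cobl, the gene of an actin nucleator, had 4 annotated peaks; the nearest, 5890 bp upstream, had 0.62 (SE 0.208) and an edgeR FDR of 0.0506, the smallest above the threshold, in the authors' deposited table. Sgce, the ε-sarcoglycan gene, had 0.81 (SE 0.319, edgeR FDR 0.109) in the authors' deposited table, on an intron 1 peak of 2.12 CPM. Gnas, the gene of the stimulatory G protein α subunit, had -0.61 (SE 0.256, edgeR FDR 0.139) in the authors' deposited table, in intron 2 of 12. Although 4 RefSeq promoters are listed for Gnas, only 1 start was solved, so peaks at its other starts were not read as such. Ube3a, a ubiquitin ligase gene, had 1 peak 201107 bp upstream with 0.36 (SE 0.160, edgeR FDR 0.166) in the authors' deposited table. Phactr2, a regulator of actin and phosphatase 1 that is separated from Plagl1 by Zc2hc1b and Ltv1 in the RefSeq gene order, had 2 intronic peaks with 0.40 (SE 0.153, edgeR FDR 0.0981) and 0.69 (SE 0.322, edgeR FDR 0.198) in the authors' deposited table. Across the 18 annotated peaks without a call the FDR ran from 0.0506 to 0.198.

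At the start sites themselves no peak was called. Over or within 1 kb of a solved start lay 12 consensus peaks of 11 genes. Of these, 0 had an edgeR FDR under 0.05 in the authors' deposited table (smallest 0.114). An unadjusted p under 0.05 was found at 2, those of Airn and Grb10. Over all consensus peaks, 5.62% passed and 17055 of 85925 had such a p, so these counts do not set the start peaks apart. Of the 12, 9 had a fold below 0, or 10 with the trend subtracted, and the median log2 fold was -0.095 in the authors' deposited table. Of all 85925 consensus peaks, 42631 had a fold below 0, and their median was 0.0024. The intervals of all but the Airn and Grb10 start peaks spanned 0, and no test was made over the 12 signs. The best measured was the Ube3a start (chr7:58877939-58879393, 85.9 CPM), with a log2 fold of -0.052 (95% interval -0.15 to 0.042) in the authors' deposited table. The Kcnq1ot1 start, which lies at the control region of its cluster (chr7:142849361-142850564, 31.7 CPM), had -0.046 (95% interval -0.20 to 0.11) in the authors' deposited table. The Cdkn1c start (18.8 CPM) had -0.16 (95% interval -0.36 to 0.041) in the authors' deposited table. At 6.71 CPM, the start of Sgce, whose promoter is shared with Peg10, gave -0.28 (95% interval -0.61 to 0.060) in the authors' deposited table.

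**Figure D5:**
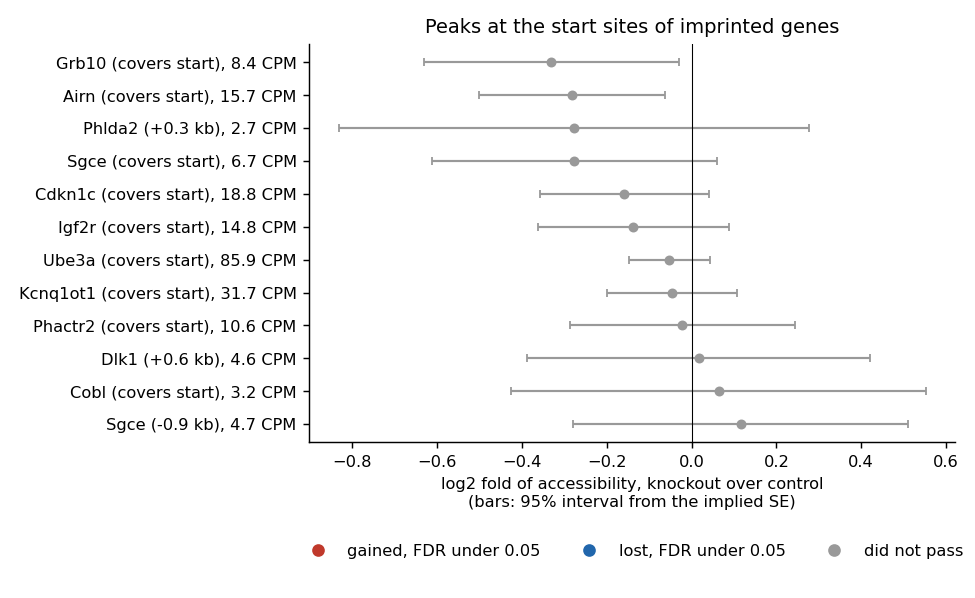
Log2 fold of knockout over control (x axis, 95% intervals) for the 12 consensus peaks over or within 1 kb of the start of an imprinted gene, ordered by fold, with mean CPM. None of the 12 passed, and values run from -0.33 at Grb10 to 0.12 beside Sgce.

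The other 26 genes had no annotated peak, a lack that depends on the contrast, and their starts could not be solved. For 25 of them the interval between the nearest genes with a solved start was read instead, 13 intervals with 305 consensus peaks, of which 6 were gained (1.97%) and 7 lost (2.30%) in the authors' deposited table. The called share was 4.26%, beside 5.62% of all consensus peaks (3.14% gained and 2.48% lost). H19, a non-coding RNA, and Igf2, a growth factor gene, lay between Lsp1 and Tspan32 with 15 peaks, and the 2 lost there were assigned to Lsp1, 5087 and 7928 bp from its start. Intervals with 0 calls held Peg3, Usp29 and Zim1 (22 peaks, smallest edgeR FDR 0.115), Mest and Copg2 (14, 0.181), Peg10 and Ppp1r9a (14, 0.155), Ddc (22, 0.129), Zrsr1 and Commd1 (23, 0.139), Snrpn (6, 0.163) and Zdbf2 (3, 0.132), in the authors' deposited table. These held 3, 2, 1, 2, 1, 1 and 1 peaks with an unadjusted p under 0.05, in the same order. Ndn, Magel2, Peg12 and Mkrn3 shared a gene-poor interval of 2324 kb with 23 peaks, 2 of them gained in the authors' deposited table and assigned to Gm27252 (log2 folds 0.74 and 0.66). The interval of Impact, on chromosome 18, was wide (1875 kb, 99 peaks) with 2 gained and 4 lost. Nespas, an antisense RNA of the Gnas cluster, was not matched and is not analysed here.

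Chosen after its values were seen, Osbpl1a, which adjoins Impact and encodes an oxysterol-binding protein, had lost peaks 482 bp and 28652 bp from its start. In the authors' deposited table their log2 folds were -0.34 (SE 0.0523, edgeR FDR 4.84e-07) and -0.81 (SE 0.144, edgeR FDR 1.98e-05).

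Both directions were seen among paternally and among maternally expressed genes. Paternally expressed genes had 2 gained and 2 lost of 9 annotated peaks in the authors' deposited table, maternally expressed genes 2 and 1 of 8, and genes imprinted only in some tissues 0 and 0 of 8. Called shares were 44.4%, 37.5% and 0% in that order, beside 30.6% of all annotated peaks (17.6% gained and 13.1% lost), each over 8 or 9 peaks. Median log2 folds within 50 kb were 0.0036, 0.0016 and 0.043 for these groups in the authors' deposited table. Peaks near both Igf2r and Airn count in both of the first groups, and no test was made.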

How the data were processed

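Mouse ATAC-seq libraries, 2 Plagl1 knockout and 2 control, were grouped by their titles. Per the submitters' processing notes, Bowtie2 2.5.4, HOMER, SAMtools 1.21, Trim Galore 0.6.10, DiffBind 3.16.0, deepTools 3.5.5 and GATK 4.5.5.0 were used with mm39, in roles not given. How peaks were called, libraries scaled and transposase cuts offset is not given in the sources used here. The authors' deposited values per peak, from edgeR per the file names, are a mean CPM on the log2 scale, a log2 fold, a p-value, its FDR and an F score. The deposited distance to the nearest start site comes in the layout of HOMER. The labels do not say whether libraries came from separate animals, so whether the p-values cover variation between animals is not known.

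Genes and lists were chosen with earlier results of these data known. A peak was called at an FDR under 0.05, adjusted over all 85925 peaks. Standard errors are the size of the log2 fold divided by √F. Start sites were solved from peak centre and distance, the strand coming from 2 or more peaks (tolerance 2 bp), or else from RefSeq promoters (the 2 sources gave the same strand for 99.5% of 2378 starts), or, for Sgce, from the only candidate under a consensus peak. Gene order came from RefSeq GRCm38.p6 and promoters from the same build. Every gene was accounted for, with full values for those with a called peak or a peak within 1 kb of a start, and up to 3 genes per other list. Alternatives were thresholds, windows, subtraction of a running median of fold over 2000 peaks along signal, and added coefficients of variation; that of 0.05 and the removal of repeats were chosen after seeing the data. The adjustment, the trend and the added variation were tested on simulated peaks. Their noise came from the implied standard errors alone, with no further variation between libraries. For start sites only the arithmetic was checked there. Tools were pandas 2.3.3, matplotlib 3.10.9, numpy 2.4.6 and scipy 1.17.1 in Python 3.11.15.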

Additional observations from a re-analysis of the deposited data

How the results depend on the processing

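Of the 25 annotated peaks, 7 were called. This became 1 at an FDR under 0.01, 2 with a minimum size of 0.5 for the log2 fold, 4 with the trend of fold along signal subtracted, 4 with peaks within 50 kb of the start only, 2 with a coefficient of variation of 0.05 added and 0 with 0.1. An FDR under 0.1 gave 10, and peaks off repeats 7. Of the 79 peaks within 50 kb, 4 were called. This became 1 at an FDR under 0.01, 7 at 0.1, 2 with the minimum fold, 2 with a coefficient of variation of 0.05 and 0 with 0.1. A window of 10 kb gave 0 (7 with an unadjusted p under 0.05) and one of 100 kb gave 7. Of all consensus peaks, 5.62% were called; this became 1.94% at an FDR under 0.01, 9.27% at 0.1, 2.60% with the minimum fold, 4.72% with the trend subtracted, and 1.56% and 0.0640% with coefficients of variation of 0.05 and 0.1. For the 79, the subtracted trend and the peaks above median signal gave 3 each. Each of the 7 called peaks kept its sign with the trend subtracted, but both Dlk1 peaks and the Cdkn1c peak no longer passed. Only the 2 Igf2r peaks passed with a coefficient of variation of 0.05. No paired analysis was possible because the tables hold no values per library, and leaving out each replicate was not run for the same reason. Depth is unknown; weak peaks have wide intervals (SE 0.319 at 2.12 CPM for Sgce, against 0.0601 at 55.1 CPM for Cdkn1c).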

Other observations

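A further list held 45 genes outside the 39, from the same clusters or from other imprinted loci, and not all need be imprinted. Of these, 22 had an annotated peak, 6 had a lost peak and 1 a gained one. By peak, the authors' deposited table has 1 of 38 gained (2.63%) and 9 lost (23.7%). Of all annotated peaks, 17.6% were gained and 13.1% lost. The called share of 26.3% was close to the 30.6% of all annotated peaks. Slc38a4, the gene of an amino acid transporter, had the smallest edgeR FDR (0.00300), with a log2 fold of -0.55 (SE 0.131) at an intergenic peak 138246 bp from its start in the authors' deposited table. Ampd3, the gene of an AMP deaminase, had -0.43 (SE 0.117, edgeR FDR 0.0116) at 9757 bp from its start, and a peak assigned to Cpa4, a carboxypeptidase gene, had -0.76 (SE 0.213, edgeR FDR 0.0155), in the authors' deposited table. The gained peak was assigned to Peg13, a non-coding RNA, at 0.42 (SE 0.127, edgeR FDR 0.0256) in the authors' deposited table. No test was made over this list.

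Among 25 factors that maintain imprints or fold chromatin at them, 10 had an annotated peak, with 5 genes gained and 2 lost, 1 of them both. By peak, 6 of 20 were gained (30%) and 2 lost (10%) in the authors' deposited table, beside 17.6% and 13.1% of all annotated peaks. Smc3, a cohesin subunit gene, had a gained peak at -34194 bp from its start (log2 fold 0.54, SE 0.105, edgeR FDR 0.000153), and Tet2, the gene of an enzyme that oxidises methylcytosine, 1 at -39040 bp (0.63, SE 0.143, edgeR FDR 0.00151), in the authors' deposited table. Smchd1, a chromatin-silencing factor gene, had 0.56 (SE 0.150, edgeR FDR 0.0101) at a peak on an LTR element in the authors' deposited table.

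Of 19 genes described as moving with Plagl1 in mouse work, many of them among the 39, 9 had an annotated peak, 1 gained and 3 lost. The gained gene was Igf2r, and the lost genes were Dlk1, Cdkn1c and Tcf4. By peak, 2 of 22 were gained (9.09%) and 4 lost (18.2%) in the authors' deposited table. Of all annotated peaks, 17.6% were gained and 13.1% lost. All of the called peaks but that of Tcf4 are the peaks of the 39 genes described above. The called share of 27.3% was close to the 30.6% of all annotated peaks. Besides Igf2r and Cdkn1c, the smallest edgeR FDR was at Tcf4, a transcription factor gene, with a log2 fold of -0.41 (SE 0.0927, edgeR FDR 0.00165) in the authors' deposited table.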
